A study of Homo sapiens with 6 samples.

Results

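The 40 genes described here encode the human aminoacyl-tRNA synthetases and 2 scaffold proteins that hold several of them together. They were taken by gene symbol from the 62700 rows of a count table of the Ewing sarcoma cell line A673. The symbols were those with any letter followed by ARS and a final 1, 2 or 3, together with EPRS1, FARSA, FARSB, AIMP1 and AIMP2, and each stood on 1 row. Of the 40, 21 encode cytosolic enzymes, 17 encode mitochondrial enzymes (names ending in 2) and 2 encode the scaffold proteins AIMP1 and AIMP2. All 40 passed the filter on low counts. RNA was sequenced from 3 libraries of parental A673 cells, which carry the EWS-FLI1 fusion oncoprotein, and 3 libraries of A673 cells labelled as EWS-FLI1 knockout, both grown in DMEM with serum and given no treatment that the labels name. The labels do not say whether the knockout cells are 1 clone or a pool, nor whether replicates were separate cultures, so the tests weigh differences only against how far libraries of a genotype vary, and that variation may be technical.

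An aminoacyl-tRNA synthetase joins an amino acid to the tRNA that reads its codons, and every protein made by a ribosome depends on this step. Cytosol and mitochondria have separate sets of tRNAs, and for most amino acids separate nuclear genes encode the cytosolic and the mitochondrial enzyme. GARS1 and KARS1 each serve both compartments, EPRS1 carries the glutamate and the proline activity in 1 protein, and FARSA and FARSB are the subunits of the cytosolic phenylalanine enzyme. Many cytosolic synthetase genes are known to be switched on by ATF4, the transcription factor made when the kinases of eIF2 alpha sense uncharged tRNA or other stress.

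Library totals ran from 301605666 to 342624492 estimated counts, so counting error was small for genes of these levels. EWSR1 had a log2 fold change of -0.26 (SE 0.047) between knockout and parental libraries and FLI1 one of 0.38 (SE 0.050), which was -0.04 with total counts only. A count per gene adds fusion and normal transcripts, so these levels do not check the loss of the fusion. All 10 marker genes of Ewing sarcoma on the list, among them CD99, NKX2-2 and NR0B1, fell in the knockout libraries, with a median log2 fold change of -3.23. Of 12 markers of blood, endothelial, epithelial, liver, pigment and glial cells, 7 passed the filter, of which 4 rose and 2 fell. The 12 summed to 1.47 to 1.69 CPM (counts scaled to the library size) in parental and 9.65 to 10.5 CPM in knockout libraries, mostly from PECAM1. KRT20 was at 0 in all 3 knockout libraries, and CD3E held at most 3 counts in any library. The part of these markers in the results below was not tested.

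CPM were scaled by TMM factors, which correct for differences in library composition. A positive log2 fold change means a higher level in knockout libraries, and SE is its standard error in the edgeR fit. A change was called at an edgeR adjusted p under 0.05 over all tested genes. Most of the transcriptome differed between the genotypes: 73.8% of the 28485 tested genes were called, with 37.5% lower and 36.3% higher. Counts of members are read against these shares. The scaling sets where 0 lies: with total counts only, the median over all tested genes shifted by -0.42 (log2).

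Most synthetase genes were lower in the knockout libraries. Of the 40 genes, 33 fell, 5 rose and 2 did not pass, where 37.5% of all tested genes fell and 36.3% rose. Among the 11180 tested genes at least as abundant as the least abundant member, 41.2% fell and 46.6% rose. The median log2 fold change of the 40 genes was -0.66, against -0.06 for all tested genes, and quartiles lay at -0.92 and -0.29. The median of the 40 stood 0.60 below that of all genes on the log2 scale with TMM factors. Other scaling factors shift all genes nearly alike, so they could hardly change this distance. The difference was -0.52 with no filter on low counts. Over the omissions of 1 library it ran from -0.65 (without parental replicate 1) to -0.55 (without knockout replicate 3). The knockout and parental libraries did not overlap in 38 of the 40 genes, where 76.7% of all tested genes did not overlap. No list was given a test of its own.

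**Figure D1:**
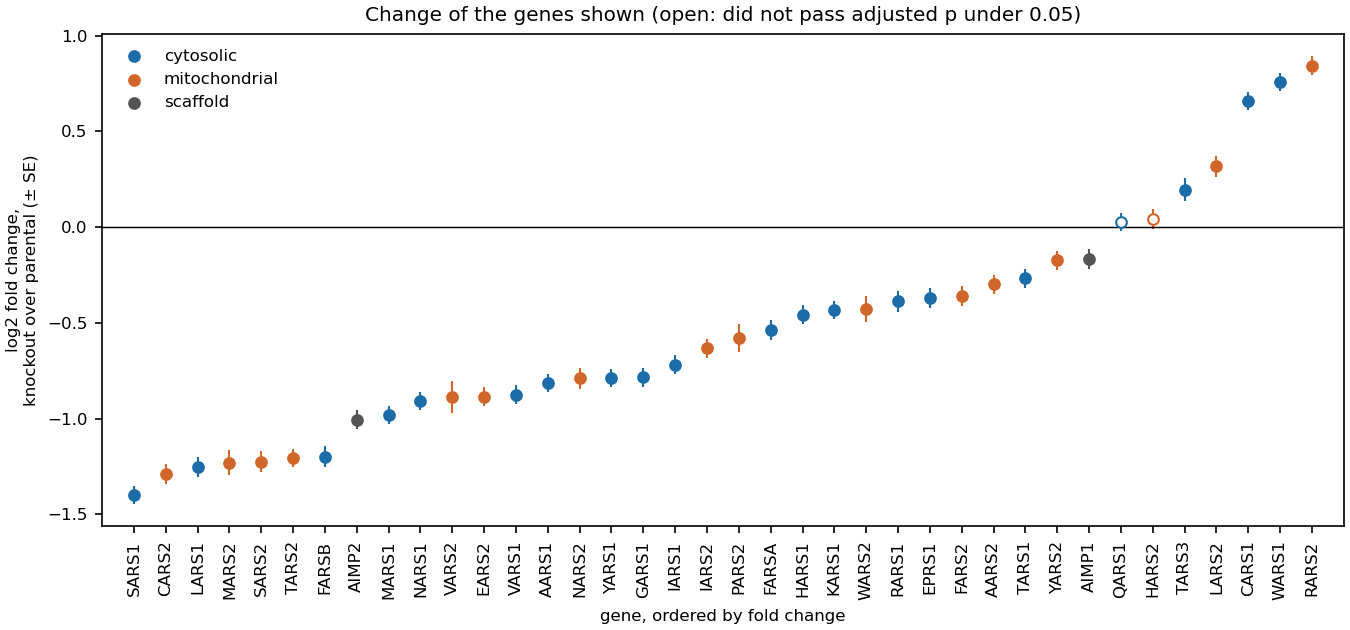
Log2 fold change of knockout over parental (vertical axis, with SE) for 38 of the genes, ordered from the largest fall to the largest rise and coloured by the compartment of the protein. Genes of both compartments are spread over the whole order, from SARS1 at -1.40 to RARS2 at 0.84, and QARS1 and HARS2 are the 2 open symbols.

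Promoter sequences are shown for the genes in which a binding element of ATF4 was found, since they include members that fell and one that rose. RefSeq promoters on GRCh38.p14 (250 bases before to 50 after the annotated start) were matched by symbol for 32 of the 40 genes, with no entry for LARS1, VARS1, YARS1, TARS3, AARS2 and VARS2 among others, and searched on both strands for TGATGNAA, where N is any base. The element stood in 7 of the 32, against 3.67% of all 27305 promoters of this length. The 7 were AARS1, CARS1, IARS1, MARS1, NARS1, TARS1 and the mitochondrial YARS2. Of the 12 cytosolic genes widely reported as ATF4 targets, 10 were matched and 6 held it. None of the 6 matched cytosolic genes outside that group held it. The 6 cytosolic windows are given 5′ to 3′ on the strand of the gene, with the element in capitals. All 6 read TTGCATCA or its reverse complement TGATGCAA.
AARS1, chr16:70289666-70289713, minus strand: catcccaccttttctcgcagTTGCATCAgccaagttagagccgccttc
CARS1, chr11:3057398-3057445, minus strand: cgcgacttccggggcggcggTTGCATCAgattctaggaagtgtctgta
IARS1, chr9:92293683-92293730, minus strand: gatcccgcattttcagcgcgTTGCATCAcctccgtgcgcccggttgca
MARS1, chr12:57488044-57488091, plus strand: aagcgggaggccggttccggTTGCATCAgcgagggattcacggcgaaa
NARS1, chr18:57621795-57621842, minus strand: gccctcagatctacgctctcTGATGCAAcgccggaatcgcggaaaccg
TARS1, chr5:33440947-33440994, plus strand: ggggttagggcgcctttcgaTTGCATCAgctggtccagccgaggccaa

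The element began 187 bases before the annotated start in AARS1, 13 in IARS1, 4 in MARS1 and 2 in CARS1, and 3 and 15 bases into the transcript in TARS1 and NARS1. The log2 fold changes of these genes were -0.98 for MARS1, -0.91 for NARS1, -0.82 for AARS1, -0.72 for IARS1, -0.27 for TARS1 and 0.66 for CARS1. YARS2, whose match TGATGGAA lies 197 bases before the start, changed by -0.17. Of the genes with the element only CARS1 rose, where 33 of all 40 members fell. A link between the element and the direction of change was not tested. A match is a description of the letters in this window and not evidence of binding.

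Of the 21 cytosolic enzymes 17 fell, 3 rose and 1, QARS1, did not pass. Their median log2 fold change was -0.68. The largest fall was that of SARS1, the serine enzyme, which also charges the tRNA for selenocysteine. It held 450.8, 446.4 and 438.2 CPM in parental cells against 169.2, 172.7 and 165.3 CPM in knockout cells. Every knockout library lay far below every parental one, at 38.0% of the parental mean (log2 fold change -1.40, SE 0.047, edgeR adjusted p = 3.1e-17). LARS1, the leucine enzyme and a sensor of leucine for the mTORC1 kinase, held 323.1, 346.1 and 344.0 CPM against 144.9, 146.2 and 134.4 CPM. The knockout mean was 42.0% of the parental one (log2 fold change -1.25, SE 0.051, edgeR adjusted p = 1.04e-15).

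Both subunits of the phenylalanine enzyme, which work as 1 complex, fell. FARSB, the beta subunit, held 84.0, 90.8 and 90.1 CPM in parental cells against 39.6, 39.8 and 36.2 CPM in knockout cells, a log2 fold change of -1.20 (SE 0.053). FARSA, the alpha subunit, held 165.2, 146.0 and 147.2 CPM against 105.6, 105.3 and 105.3 CPM, a log2 fold change of -0.54 (SE 0.052). Both were lower in every knockout library, and the difference between the subunits' changes was not tested.

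MARS1, the methionine enzyme that supplies initiator and elongator tRNA, kept 50.6% of its parental mean, from 494.3 ± 13.3 to 250.3 ± 6.19 CPM (SD, n = 3). Of the bases in its exons, 13.3% are shared with other annotated genes, among them DDIT3 on the opposite strand, and the labels do not state a stranded protocol. AARS1, the alanine enzyme, had the highest CPM of the 40 and went from 709.3 ± 10.4 to 403.1 ± 14.0 CPM (log2 fold change -0.82, SE 0.048). NARS1, VARS1, YARS1, GARS1 and IARS1, the enzymes of asparagine, valine, tyrosine, glycine and isoleucine, kept between 53.3% and 60.8% of their parental means. Smaller falls were seen in HARS1 (72.9% kept), KARS1 (74.1%), RARS1 (76.5%) and EPRS1 (77.3%). TARS1, the threonine enzyme, kept the most of the cytosolic genes that fell, 83.0% (log2 fold change -0.27, SE 0.051).

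Against this direction, WARS1, CARS1 and TARS3 rose. WARS1, the tryptophan enzyme at chr14:100333788-100376805 (GRCh38, GENCODE release 29), is also known as a gene induced by interferon gamma. It held 224.8, 226.5 and 224.0 CPM in parental cells against 384.7, 391.5 and 364.5 CPM in knockout cells, 168.9% of the parental mean (log2 fold change 0.76, SE 0.048, edgeR adjusted p = 2.69e-12). CARS1, the cysteine enzyme at chr11:3000922-3057613, held 91.7, 91.0 and 90.6 CPM against 142.6, 147.6 and 140.8 CPM, 157.8% of the parental mean (log2 fold change 0.66, SE 0.046). Of the exonic bases of WARS1, 10.6% lie in exons of genes on the opposite strand. For both genes every knockout library stood above every parental library, and both rises held under all scalings tried.

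TARS3, a cytosolic threonine enzyme closely related to TARS1, was among the least abundant members. Parental libraries held 9.07, 9.64 and 9.47 CPM and knockout ones 11.04, 10.39 and 10.86 CPM. Its log2 fold change (0.20, SE 0.059, edgeR adjusted p = 0.00543) became -0.23 with total counts only and -0.01 with upper quartile factors, so its direction rests on the scaling. Reads that fit both TARS1 and TARS3 are divided by likelihood, which adds uncertainty to the rarer gene. QARS1, the glutamine enzyme, held 133.2, 127.4 and 127.2 CPM against 131.7, 136.4 and 127.3 CPM. Its groups overlapped (log2 fold change 0.03, SE 0.048, edgeR adjusted p = 0.608). It passed as lower with total counts only (-0.40) and with upper quartile factors (-0.18).

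**Figure D2:**
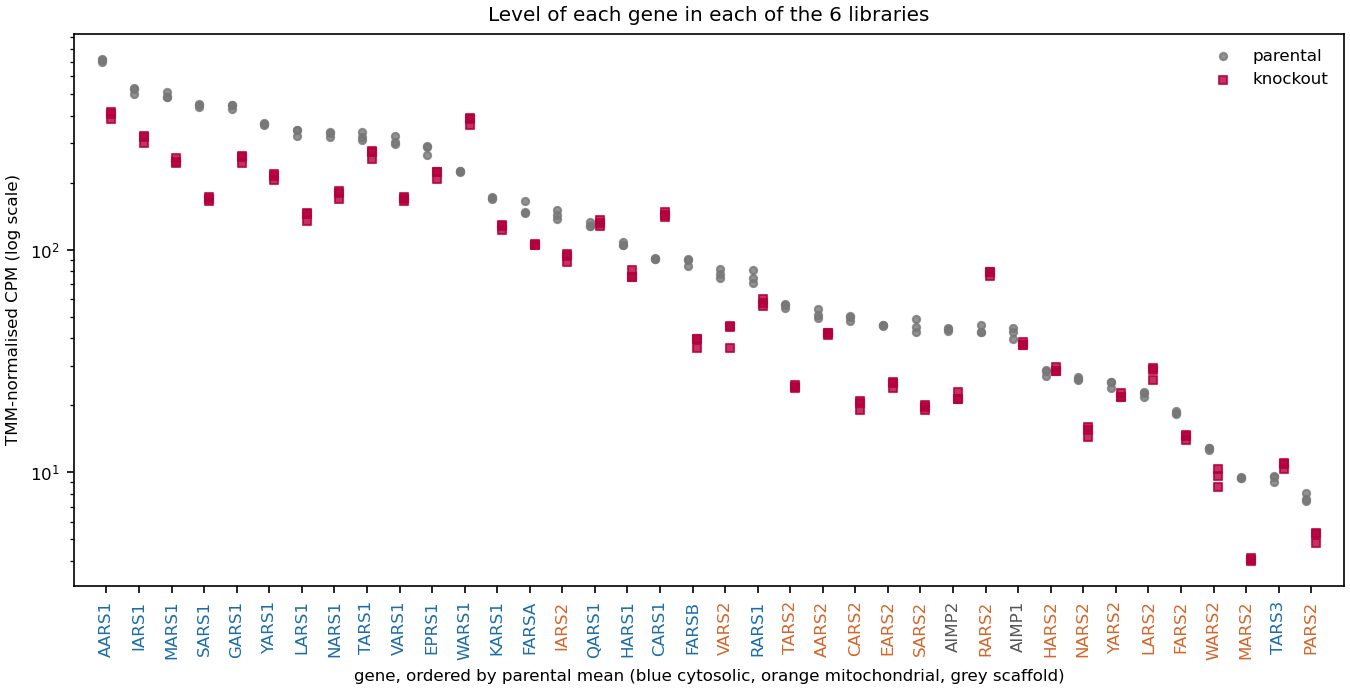
TMM-normalised CPM on a log scale (vertical axis) of 38 of the genes in each of the 3 parental (grey circles) and 3 knockout (red squares) libraries, ordered by parental mean. The knockout squares sit below the grey circles for most genes, and above them for WARS1, CARS1, RARS2, LARS2 and TARS3. The log2 fold changes of LARS2 and TARS3 turn negative with total counts only.

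Of the 17 mitochondrial enzymes 14 fell, 2 rose and 1, HARS2, did not pass. Their median log2 fold change was -0.63, beside -0.68 for the cytosolic enzymes, and the difference between the medians was not tested. CARS2, the mitochondrial cysteine enzyme, fell most. It held 50.2, 47.8 and 49.7 CPM in parental cells against 19.1, 20.9 and 20.5 CPM in knockout cells, 41.0% of the parental mean (log2 fold change -1.29, SE 0.052, edgeR adjusted p = 9.29e-16). Every knockout library of CARS2 was below 21 CPM and every parental one above 47 CPM.

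MARS2, SARS2 and TARS2, the mitochondrial methionine, serine and threonine enzymes, kept between 42.7% and 43.4% of their parental means. MARS2 went from 9.47 ± 0.0739 to 4.04 ± 0.0546 CPM and TARS2 from 56.0 ± 1.15 to 24.3 ± 0.436 CPM (SD, n = 3). SARS2 went from 45.6 ± 3.03 to 19.5 ± 0.494 CPM, but 57.0% of its exonic bases are shared with other annotated genes, so its level is less certain than the others. EARS2 and NARS2, the glutamate and asparagine enzymes, kept 54.2% and 57.9%. VARS2 had the largest SE of the 40 genes, with 36.1, 45.1 and 45.4 CPM in the knockout libraries against 81.9, 74.7 and 77.4 CPM in the parental ones. Its groups still did not overlap (log2 fold change -0.89, SE 0.085, edgeR adjusted p = 5.09e-06), and 22.0% of its exonic bases are shared with GTF2H4.

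IARS2, the most abundant mitochondrial enzyme per length in parental cells, kept 64.5% of its parental mean. PARS2, WARS2, FARS2, AARS2 and YARS2 fell less, with log2 fold changes between -0.58 for PARS2 and -0.17 for YARS2. RARS2, the mitochondrial arginine enzyme at chr6:87514378-87590003, had the largest rise of the 40 genes. It held 42.6, 45.8 and 42.7 CPM in parental cells against 79.6, 79.8 and 75.9 CPM in knockout cells, 179.4% of the parental mean (log2 fold change 0.84, SE 0.050, edgeR adjusted p = 8.44e-13). No exon of RARS2 overlaps one of another gene in the annotation, and its rise held under all scalings tried.

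LARS2, the mitochondrial leucine enzyme, held 22.7, 21.7 and 22.9 CPM in parental cells against 28.7, 29.3 and 26.01 CPM in knockout cells. Its log2 fold change (0.32, SE 0.055, edgeR adjusted p = 2.15e-05) turned to -0.11 and did not pass with total counts only (edgeR adjusted p = 0.0508). HARS2, the mitochondrial histidine enzyme, held 27.2, 28.5 and 28.7 CPM against 28.5, 29.9 and 28.6 CPM, and its groups overlapped (log2 fold change 0.04, SE 0.050, edgeR adjusted p = 0.453). It passed as lower with total counts only (-0.38) and upper quartile factors (-0.16). The genes that mitochondrial synthetases serve, the 13 mRNAs encoded in mitochondrial DNA, had log2 fold changes between -0.23 for MT-CO3 and 0.31 for MT-CYB, with a median of -0.03. Their share of all counts was 2.95% ± 0.0985 in parental cells against 2.27% ± 0.318 in knockout cells (SD, n = 3), in libraries enriched for polyadenylated RNA.

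HARS1 and HARS2 are a case of neighbours with opposite compartments. They are transcribed away from each other on chromosome 5 from RefSeq starts 85 bases apart, and their promoter windows share 184 bases. HARS1 fell (log2 fold change -0.46, SE 0.048) and HARS2 did not pass. Their exons overlap on opposite strands, and with neighbouring genes 8.38% of the exonic bases of HARS1 and 15.8% of those of HARS2 lie in exons of another gene, so reads there may not be told apart. The shared stretch is shown on the plus strand because it is the only promoter sequence that 2 members have in common. The capitals mark 2 matches to CCGGAAGT, the core of the element bound by ETS transcription factors, the family of FLI1, on either strand.
HARS1 and HARS2, chr5:140691321-140691504, plus strand: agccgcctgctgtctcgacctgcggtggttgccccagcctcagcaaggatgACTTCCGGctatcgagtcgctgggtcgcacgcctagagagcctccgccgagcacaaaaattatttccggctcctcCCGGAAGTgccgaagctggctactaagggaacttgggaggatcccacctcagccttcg

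CCGGAAGT stood in 7 of the 32 matched promoters (CARS1, EARS2, HARS1, HARS2, NARS1, PARS2 and WARS1), of which HARS1 and HARS2 share theirs, against 4.44% of all promoters. These 7 genes had log2 fold changes of 0.66, -0.88, -0.46, 0.04, -0.91, -0.58 and 0.76 in that order, so the members with a match lay on both sides of 0. In WARS1, which rose, the match begins 25 bases before the start:
WARS1, chr14:100376325-100376372, minus strand: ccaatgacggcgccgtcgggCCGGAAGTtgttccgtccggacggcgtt

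No matched promoter held GGAA 3 times in a row, the kind of repeat at which EWS-FLI1 is known to bind, and 0.0623% of all promoters did. So rare a repeat would seldom be met in 32 promoters, and its absence is not read as a result about these genes. CACGTG, the E-box bound by MYC, stood in 4 of the 32 (CARS2, EARS2, IARS1 and MARS2), against 7.43% of all promoters.

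The cytosolic and mitochondrial enzymes of the same amino acid were compared as a log2 ratio of their estimated counts within each library, which no library scaling can change. Of 17 pairs, the ratio of mitochondrial to cytosolic counts was lower in every knockout library than in every parental one in 7 pairs and higher in 9, and 1 pair, valine, overlapped. Single genes did not overlap in 76.7% of all tested genes. The share among pairs of other genes was not computed, so these counts are not read as particular to the synthetases. EPRS1 stands in both the glutamate and the proline pair, and FARSA stands for the cytosolic phenylalanine enzyme. The phenylalanine ratio depends on this choice, since FARSB, the other subunit, fell more. The log2 fold changes were -1.20 for FARSB, -0.54 for FARSA and -0.36 for FARS2. The pair ratios are a description: with 3 libraries a group, an exact two-sided permutation test cannot go below p = 0.1. In 12 pairs both enzymes fell, in 2 the cytosolic one rose and the mitochondrial one fell, in 2 the reverse held, and in the histidine pair only the cytosolic gene passed.

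Cysteine had the largest shift. The log2 ratio of CARS2 to CARS1 was -0.87, -0.93 and -0.87 in the parental libraries and -2.90, -2.82 and -2.78 in the knockout libraries. The difference of -1.95 corresponds to a 3.85-fold lower ratio of mitochondrial to cytosolic counts. For tryptophan the log2 ratio of WARS2 to WARS1 was -4.16, -4.14 and -4.13 against -5.33, -5.24 and -5.41, a difference of -1.19. Threonine moved the same way, with a difference of -0.94 from -2.53 ± 0.0758 to -3.47 ± 0.0872 (SD, n = 3).

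Leucine and arginine moved the other way. The log2 ratio of LARS2 to LARS1 was -3.83, -3.99 and -3.91 in parental and -2.34, -2.32 and -2.37 in knockout libraries, a 2.97-fold higher ratio. The log2 ratio of RARS2 to RARS1 went from -0.73, -0.82 and -0.81 to 0.47, 0.42 and 0.44. Arginine was thus the pair in which the order of the counts turned over, with fewer counts for the mitochondrial gene in all 3 parental libraries and more in all 3 knockout libraries. Tyrosine, alanine and histidine shifted by 0.61, 0.52 and 0.50 and glutamate by -0.51. Of the 8 remaining pairs, 7 shifted by between -0.25 and 0.17, among them valine and phenylalanine as set against FARSA. In valine, knockout replicate 1 lay lowest of the 6 libraries at -2.20, and the difference was -0.02 with it and 0.08 without it.

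**Figure D3:**
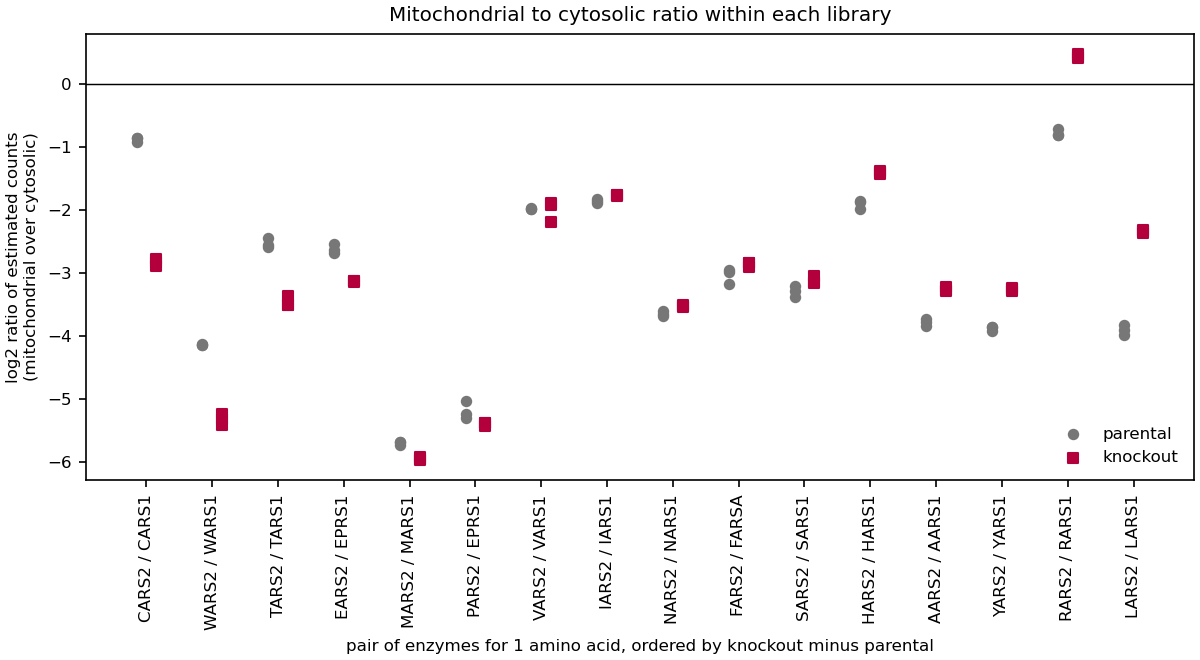
Log2 ratio of the estimated counts of the mitochondrial to the cytosolic enzyme (vertical axis) in each parental (grey circles) and knockout (red squares) library, for 16 pairs ordered by knockout minus parental. The cysteine and tryptophan pairs at the left differ by -1.95 and -1.19, and the arginine and leucine pairs at the right by 1.23 and 1.57.

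Summed over genes, both compartments took a smaller share of the counts in knockout cells. The 21 cytosolic genes held 0.657% ± 0.0110 of the estimated counts of a parental library against 0.319% ± 0.00419 of a knockout library (SD, n = 3), and the 17 mitochondrial genes held 0.0832% ± 0.000821 and 0.0431% ± 0.000798. The ratio of both sums was 7.83, 7.94 and 7.91 in the parental libraries and 7.49, 7.40 and 7.28 in the knockout libraries. It was lower in every knockout library than in any parental one. The sums follow the most abundant genes, and they count GARS1 and KARS1, which serve both compartments, as cytosolic. Shares of all counts depend on what else fills the library, and the TMM factors that correct for this averaged 1.16 in parental and 0.864 in knockout libraries. In bulk RNA, fewer cells expressing a gene and less RNA per cell cannot be told apart.

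A set of 8 cytosolic synthetases, among them EPRS1, IARS1, LARS1, MARS1, QARS1, RARS1 and KARS1, and 3 scaffold proteins form the multisynthetase complex, which keeps the enzymes near the ribosome. Of its 10 members among the 40 genes, 9 fell and none rose. Their log2 fold changes ran from -1.25 for LARS1 to 0.03 for QARS1, and the median was -0.56. Of the 13 cytosolic synthetases outside the complex, 10 fell and 3 rose, with a median of -0.78. AIMP2, the scaffold around which the complex is built, held 44.7, 44.1 and 43.1 CPM in parental cells against 21.3, 22.9 and 21.4 CPM in knockout cells (log2 fold change -1.01, SE 0.051), and 28.9% of its exonic bases are shared with EIF2AK1 on the opposite strand. AIMP1, a scaffold that is also secreted as a cytokine, held 39.9, 44.5 and 42.6 CPM against 38.3, 37.4 and 37.4 CPM. Of its exonic bases, 11.6% lie in exons of TBCK on the opposite strand. Its fall was small (-0.17, SE 0.051, edgeR adjusted p = 0.00613) and was lost without parental replicate 2 (-0.11, edgeR adjusted p = 0.0517, with a highest value of 0.0517 over the 13 alternatives). The third scaffold, EEF1E1, fell more than any of the 40 genes, from 49.2, 53.7 and 49.1 to 15.4, 15.2 and 14.5 CPM (log2 fold change -1.76, SE 0.054, edgeR adjusted p = 6.31e-18).

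By structural class, 13 of the 18 synthetases with only a class I catalytic fold fell and 4 rose, and 17 of the 19 with only a class II fold fell and 1 rose, with medians of -0.68 in both. The class I members that rose were CARS1, WARS1, RARS2 and LARS2, and the class II member was TARS3.

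The ATF4 group was looked at apart because many cytosolic synthetase genes are known to be switched on by ATF4. Of 12 synthetase genes widely reported as ATF4 targets, 10 fell and WARS1 and CARS1 rose, and the median was -0.79 (log2). Of the 9 other cytosolic synthetases, 7 fell and TARS3 rose, with a median of -0.46. The difference between these medians was not tested. ATF4 itself held 674.4, 657.4 and 648.7 CPM in parental cells against 418.2, 452.7 and 436.3 CPM in knockout cells, lower in each (log2 fold change -0.60, SE 0.048, edgeR adjusted p = 2e-10). ATF4 is controlled mainly through its translation, which RNA levels do not show.

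Among 30 other genes reported as ATF4 targets, 22 fell and 7 rose, and the median was -0.81. TRIB3, a pseudokinase that feeds back on ATF4, went from 318.6 ± 14.7 to 26.2 ± 0.582 CPM (log2 fold change -3.61, SE 0.055). ASNS, asparagine synthetase, went from 251.2 ± 12.1 to 70.3 ± 1.31 CPM (-1.84, SE 0.051), and PSAT1, an enzyme of serine synthesis, from 378.3 ± 10.5 to 122.6 ± 3.93 CPM (-1.63, SE 0.049). CHAC1, which breaks down glutathione, and DDIT3, the stress factor CHOP, fell by 1.41 and 0.90 on the log2 scale, and PHGDH, the first enzyme of serine synthesis, by 0.79. The list was not uniform: its extremes, named after their values were seen, were ATF5 at -4.05 and NUPR1 at 5.58.

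Of the kinases that phosphorylate eIF2 alpha, EIF2AK4 (GCN2, the sensor of uncharged tRNA) rose from 64.9, 64.9 and 65.7 to 160.4, 150.6 and 145.5 CPM (log2 fold change 1.22, SE 0.050). EIF2AK3 (PERK, the sensor of unfolded protein in the endoplasmic reticulum) rose from 10.8 ± 0.173 to 33.6 ± 0.724 CPM (1.63, SE 0.052). EIF2AK2 (PKR, activated by double-stranded RNA) rose by 0.51 (SE 0.058), which did not pass with total counts only (0.09). EIF2AK1, the haem-regulated kinase, had a value of -0.10 (SE 0.048, edgeR adjusted p = 0.0603) and passed as lower in 6 of the 13 alternatives. EIF2AK1 shares 532 exonic bases with AIMP2 on the opposite strand, where reads may not be told apart. MYC, a known activator of genes for protein synthesis, had overlapping groups at 118.0 ± 4.38 and 117.5 ± 0.243 CPM and did not pass (-0.01, SE 0.047), but passed as lower with total counts only (-0.43) and upper quartile factors (-0.21).

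**Figure D4:**
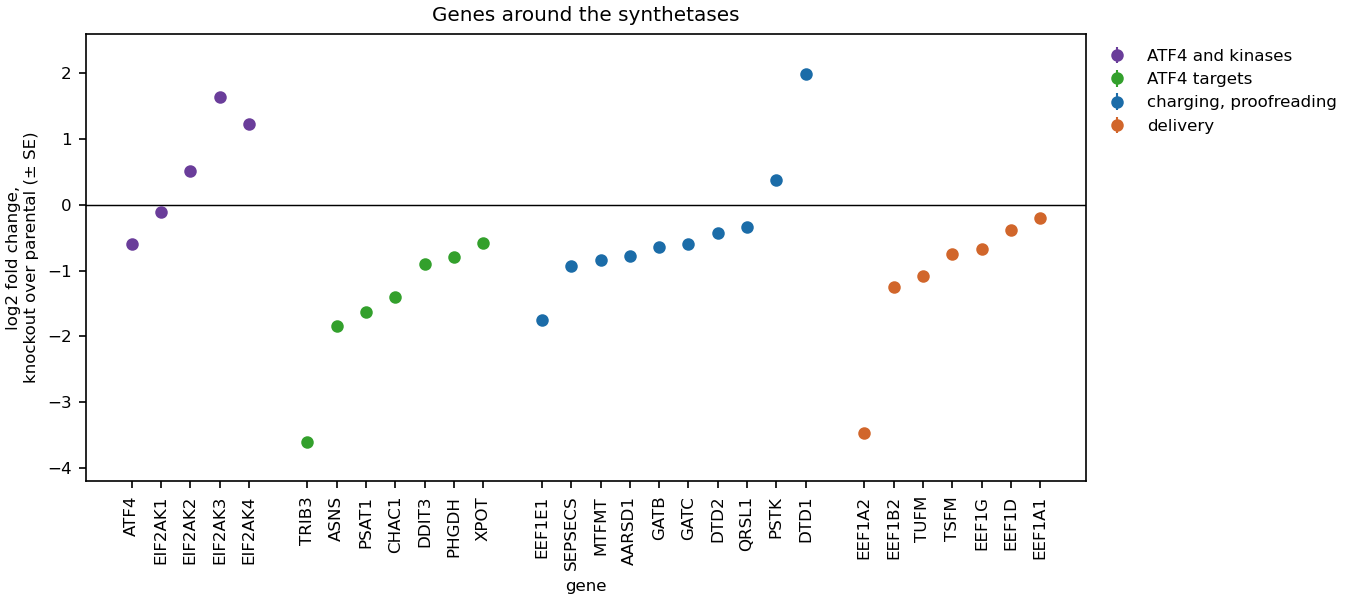
Log2 fold change of knockout over parental (vertical axis, with SE, mostly smaller than the symbols) for genes around the synthetases. They are ATF4 and the eIF2 alpha kinases, 7 ATF4 targets, 10 charging and proofreading partners and 7 genes for the delivery of charged tRNA. All 7 ATF4 targets drawn fell, whereas of the 30 listed outside the synthetases 22 fell and 7 rose. EIF2AK3 at 1.63, EIF2AK4 at 1.22 and DTD1 at 1.99 lie well above 0, and TRIB3 at -3.61 and EEF1A2 at -3.46 lie lowest.

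Partners of the synthetases mostly fell as well. Of 10 charging and proofreading partners, 8 fell and 2 rose, with a median of -0.62. GATB, GATC and QRSL1, the subunits of the enzyme that makes mitochondrial glutaminyl-tRNA in the absence of a dedicated synthetase, changed by -0.64, -0.59 and -0.34. MTFMT, which formylates the mitochondrial initiator, changed by -0.84, and SEPSECS, which completes selenocysteine on its tRNA, by -0.93. DTD1, a deacylase that removes D-amino acids from tRNA, went the other way, from 7.92, 7.80 and 7.25 to 31.8, 31.8 and 27.7 CPM (log2 fold change 1.99, SE 0.063). PSTK rose by 0.37, but its value was -0.05 with total counts only.

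All 7 genes on the list for delivery of charged tRNA to the ribosome, which holds carriers and subunits of their exchange factors, fell. EEF1A1, the main cytosolic carrier, fell little (-0.20, SE 0.050), while EEF1A2, its form in neurons and muscle, went from 162.6 ± 11.5 to 14.8 ± 0.369 CPM (-3.46, SE 0.059). TUFM and TSFM, the mitochondrial carrier and its exchange factor, changed by -1.08 and -0.74. Other steps of tRNA supply had medians nearer 0, a difference that was not tested: the median was -0.38 over 36 tRNA modification genes (29 fell, 3 rose), -0.16 over 24 genes of tRNA processing and export (14 fell, 4 rose) and -0.16 over 22 genes of RNA polymerase III (12 fell, 5 rose). Without parental replicate 2 or without knockout replicate 3, 5 tRNA modification genes rose. XPOT, the exporter of tRNA, changed by -0.58, and TRNT1, which adds the CCA end to which the amino acid is joined, did not pass (0.04, SE 0.054) and passed as lower with total counts only (-0.38) and upper quartile factors (-0.16). For comparison, mitochondrial ribosomal proteins had a median of -0.59 (59 of 75 fell) and cytosolic ones -0.37 (63 of 83 fell).

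To compare levels between genes, CPM were divided by the length of the principal transcript in GENCODE release 29, since a longer transcript yields more counts. These lengths are those of the annotation and not of the isoforms in A673, so the order is approximate. In parental libraries the cytosolic enzymes ranged from 2.602 CPM per kb for TARS3 to 240.4 for SARS1 with a median of 72.8, and the mitochondrial ones from 3.14 for MARS2 to 40.3 for IARS2 with a median of 11.7. In knockout libraries the medians were 57.1 and 8.89 CPM per kb. SARS1 at 240.4 ± 3.45, AARS1 at 204.0 ± 2.98, MARS1 at 170.2 ± 4.56 and GARS1 at 167.4 ± 3.87 CPM per kb led the parental order (SD, n = 3), with overlapping libraries only for MARS1 and GARS1.

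In the knockout libraries WARS1, ranked 11 in the parental order, led with 122.97 ± 4.54 CPM per kb. AARS1 followed at 115.9 ± 4.04, and the libraries of both overlapped, so their order is not resolved. GARS1 at 97.2 ± 3.96 and SARS1 at 91.3 ± 2.00 came next, also with overlapping libraries. CARS1 moved from rank 20 to 12 and RARS2 from 24 to 15. Among the enzymes with names ending in 2, RARS2 was thus the highest in the knockout libraries. It stood at 43.1 ± 1.195 CPM per kb, above IARS2 at 25.97 ± 1.04. GARS1 and KARS1, which serve both compartments, stood higher, KARS1 at 63.1 ± 1.62 CPM per kb. LARS1 moved from rank 13 to 18. Of the 39 neighbouring pairs in the order, the libraries overlapped in 17 in parental and in 20 in knockout cells.

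**Figure D5:**
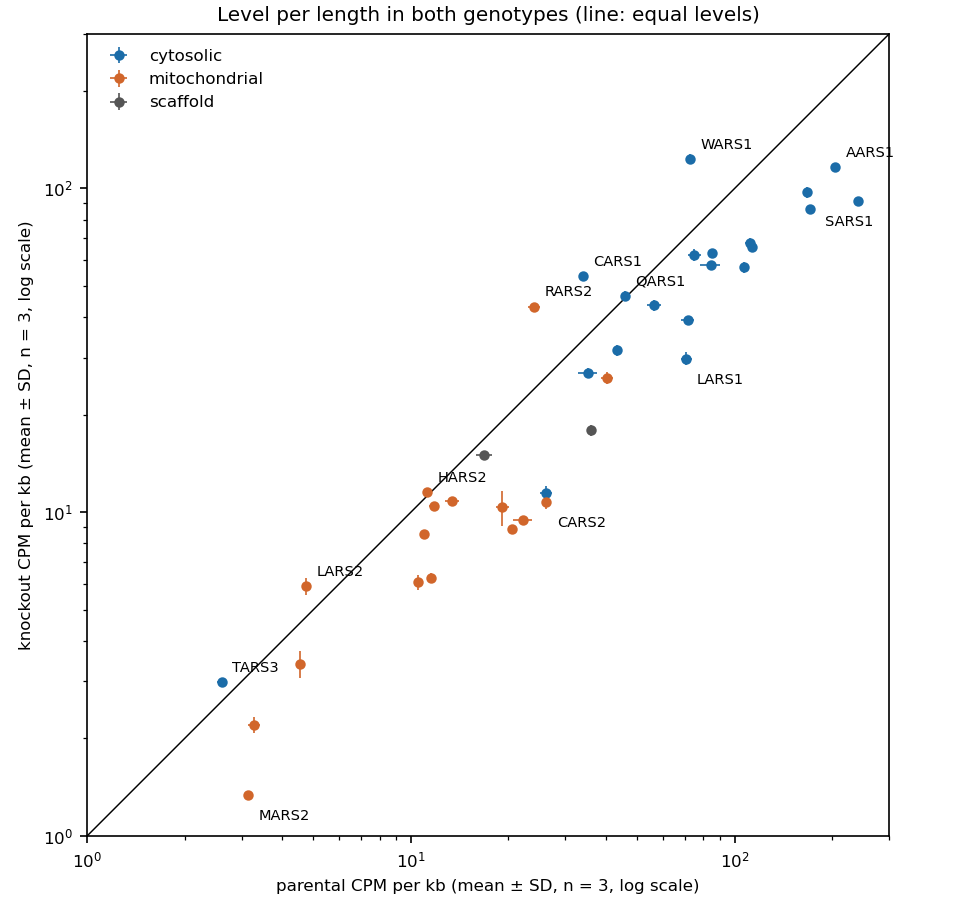
Level per kb of principal transcript of 38 genes in parental (horizontal axis) and knockout (vertical axis) libraries, both on log scales, as mean and SD of 3 libraries, with the line of equal levels. Most genes lie below the line, WARS1, CARS1 and RARS2 lie clearly above it, and QARS1 lies on it within its SD, and HARS2 lies close to it.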

How the data were processed

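Polyadenylated RNA of 6 A673 libraries was sequenced on an Illumina NovaSeq, per the labels' protocols. The authors deposited estimated counts per gene, made with kallisto 0.48.0 and hg38 per the submitters' processing notes; the annotation release is not given in the sources used here. The counts were rounded and fitted in R 4.3.3 with edgeR 4.0.16: filterByExpr (minimum count 10, minimum total count 15), TMM factors, a robust quasi-likelihood model with genotype as its term, two-sided tests and Benjamini-Hochberg adjustment over 28485 genes. The SE is the log2 fold change divided by the square root of F. Pair ratios used estimated counts plus 0.5. The depth of 301605666 to 342624492 counts puts 3 counts at 0.00876 to 0.00995 CPM; this floor covers counting error only. The steps were tested on simulated data in which few genes changed, as many up as down. That test does not cover the scaling of data in which most genes differ, as here. Gene models came from GENCODE release 29 (GRCh38) and promoters from RefSeq (GRCh38.p14).

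The members and gene lists were chosen with earlier results of these data known. Named genes were the 40 members, EWSR1, FLI1, MYC, ATF4, the eIF2 alpha kinases, the charging and delivery lists, 8 further genes of stress response and tRNA supply, and the mitochondrially encoded mRNAs as a range. Promoter motifs were chosen after the fold changes were seen. Replicates within a genotype differed by more than sampling noise (chi-square per degree of freedom 11.1 to 78.1). Alternatives covered DESeq2 size factors, total counts only, upper quartile factors, no filter, DESeq2 1.42.0, voom of limma 3.58.1, a replicate term and leaving out each library. Values of 2 members are not reported here and are not drawn, though counts and medians over the lists include them.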

Additional observations from a re-analysis of the deposited data

How the results depend on the processing

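Of the 40 members, 35 kept direction and call under all 13 alternatives (3 scalings, no filter, the DESeq2 Wald test, limma-voom, the replicate term and 6 omissions of a library). AIMP1 lost its call without parental replicate 2. With total counts only, the log2 fold changes of QARS1 (-0.40), TARS3 (-0.23), HARS2 (-0.38) and LARS2 (-0.11) were negative, and with upper quartile factors those of QARS1 (-0.18), TARS3 (-0.0072) and HARS2 (-0.16). These scalings shift all genes downwards, by -0.42 and -0.20 in the median. In turn FLI1 (-0.040) and PSTK (-0.049) with total counts only, and TRNT1 (-0.38 and -0.16) with both, changed sign. MYC was at 0.019 with DESeq2 size factors and the DESeq2 Wald test, and between -0.00996 and 0.0472 over the omissions of 1 library. With total counts only, 3 members rose and 36 fell, of which 1 risen gene was mitochondrial, and 0 of the other cytosolic synthetases rose; with upper quartile factors this last count was 0 too. All genes then split into 7370 risen and 14949 fallen, and 8702 and 12780.

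With total counts only and upper quartile factors, respectively, risen genes numbered 1 and 1 among charging partners, 0 and 2 in tRNA processing, 1 and 2 in RNA polymerase III, 0 and 1 in tRNA modification, 0 and 0 among mitochondrially encoded mRNAs (main count 3), 3 and 7 among cytosolic ribosomal proteins, and 4 among mitochondrial ones with total counts only (main count 7). Fallen genes numbered 22 in tRNA processing and 20 in RNA polymerase III with total counts only, and 10 and 6 among mitochondrially encoded mRNAs (main count 3). Of ATF4 and its kinases, 2 fell with either scaling, with no filter and with limma-voom, against 1. Over the omissions of 1 library, 1 to 2 of these fell, 1 to 6 mitochondrially encoded mRNAs rose and 1 to 3 fell, and 3 to 5 tRNA modification genes rose. The pairs with a higher mitochondrial to cytosolic ratio in every knockout library numbered 9 or, without knockout replicate 1, in which VARS2 was low, 10. Without a pseudocount, the pair counts were the same.

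The genotypes share replicate numbers, but same-numbered libraries did not deviate together (correlations -0.182, 0.00141 and 0.0446). No library correlated best with its own number, so the numbers are not taken to pair them. With the replicate number as a block, 33 members fell and 5 rose as before, and 10041 genes rose and 10377 fell.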
